A study of Arabidopsis thaliana with 15 samples.

Results

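The mean transcript level in rosette leaves of the single knockouts nhx5-2 and nhx6-2 was set against that of wild type, to describe what the loss of either antiporter had in common. The comparison used 9 of the 15 arrays, 3 of nhx5-2, 3 of nhx6-2 and 3 of wild type, and 22746 of the 22810 probe sets, the 64 control probe sets being kept for quality only. The remaining 6 arrays, of the double knockouts nhx5-2/nhx6-2 and nhx5-1/nhx6-1, helped to estimate the spread and are given beside the results. All plants were Arabidopsis thaliana of the Columbia accession, 4 weeks old, grown in soil under 8 h of light and 16 h of dark with weekly fertilizer, and each array was hybridized with RNA of 1 biological replicate. The nhx5-2 line carries a GABI T-DNA insertion in NHX5 and the nhx6-2 line a SALK insertion in NHX6, so each single knockout is represented by 1 insertion line. The annotation used here pairs none of the probe sets with NHX5 or NHX6, so the knockouts are known from the labels alone.

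NHX5 and NHX6 are related antiporters of the Golgi, the trans-Golgi network and the prevacuolar compartment, where they move potassium or sodium ions into the lumen in exchange for protons. They thereby counter the acidification driven by the proton pumps of these membranes and are known for a part in the delivery of proteins to the vacuole. The 2 proteins are known to overlap in function, plants lacking both being small while plants lacking either one look much like wild type.

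Losing either antiporter came with few changes, and nearly all were decreases. After limma's test with Benjamini-Hochberg adjustment over all probe sets, 81 of 22746 probe sets changed (0.356%), of which 76 fell (0.334%) and 5 rose (0.022%). At an unadjusted p under 0.05 there were 1624 (7.14%). The named decreases included 2 genes linked to flavonoids and light, CHIL and HYH, 2 genes of cell wall proteins, EXGT-A3 and EXLA1, the peptide genes STOMAGEN and RALFL33, and the Hsp70 gene AT3G09440. The named increases were AT1G64380 and Fes1B. These named genes were chosen for having no overlap between single knockout and wild type arrays, so that separation is no result. With quantile normalization the count was 235, of which 46 were higher and 189 lower, so the share of increases depended on the scaling.

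The number of changes rested on 2 wild type arrays. Without wild type replicate 1 there were 12 changes and without wild type replicate 3 there were 14, against 45 to 71 when any other array was left out, the lower counts among these being 45 without nhx5-2 replicate 3, 48 without nhx6-2 replicate 1 and 53 without nhx5-2 replicate 2. Without the 2 arrays whose values had the lowest SD, nhx5-2 replicate 1 and nhx5-1/nhx6-1 replicate 3, there were 228. Wild type replicates 1 and 3 correlated at r = 0.997 across probe sets, with a median absolute difference of 0.0383, the smallest among the 15 pairs of replicates in the study.

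Values are the deposited scores, which are log-like with a mean near 0 on each array, of unstated base. On the spike-in controls a doubling of the nominal amount added 0.681 units, which makes 1 unit about 2.77-fold, and folds given here rest on that slope. Differences are followed by the standard error of the model. The 76 decreases had a median size of 0.405 units and the 5 increases 0.377, and the smallest change that passed was 0.208. There were 18 decreases of at least 0.5 units and 0 such increases. Over all probe sets the median difference was 0.0011, with 11548 above 0 and 11198 below. For 79 of the 81, all 6 single knockout arrays lay on one side of all 3 wild type arrays. Over all probe sets this held for 881 below wild type (3.87%) and 366 above (1.61%). The test that called the 81 used the same arrays, so their separation follows largely from the call and is no further support. In bulk leaf RNA, a lower level per cell and fewer cells of the expressing type cannot be told apart.

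The array controls differed between the groups. The 3′ minus 5′ signal of actin and GAPDH, a measure of RNA integrity and of how far labelling reached along the transcript, was 1.86 ± 0.10 in wild type (SD, n = 3) and 1.56 ± 0.083 in the single knockouts (SD, n = 6). All 6 single knockout arrays, at 1.45 to 1.69, lay below all 3 wild type arrays, at 1.79 to 1.97 (exact permutation test, two-sided p = 0.0119, the smallest that 84 splits allow). The difference lay mainly in the 5′ probe sets. For GAPDH the 5′ signal went from 1.39 to 1.79 (exact permutation p = 0.0119), and the 3′ signal stood at 2.87 and 2.85 (exact permutation p = 0.905). For actin the 5′ signal went from 0.14 to 0.41 (exact permutation p = 0.0357) and the 3′ signal from 2.38 to 2.48 (exact permutation p = 0.286). When the 3′ minus 5′ signal entered the model as a covariate, 5 probe sets changed. The median size of the 81 differences was then 0.446 units and their median standard error 0.102, against 0.405 and 0.0668 without it. The spike-ins were brighter on wild type replicates 1 and 3 and nhx6-2 replicate 3, at 2.75 to 2.84, than on the other 12 arrays of the study, at 2.25 to 2.51. With the high and low arrays as a block, a setting chosen after seeing the data, 26 probe sets changed, 22 of them among the 81. Of the arrays compared here, the low set held wild type replicate 2 and 5 single knockout arrays, and the high set held wild type replicates 1 and 3 and, as its only single knockout array, nhx6-2 replicate 3. A value within the high set is therefore that 1 nhx6-2 array against 2 wild type arrays, not the pooled comparison. The part of the RNA and array controls in the results was not tested beyond these fits.

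**Figure D1:**
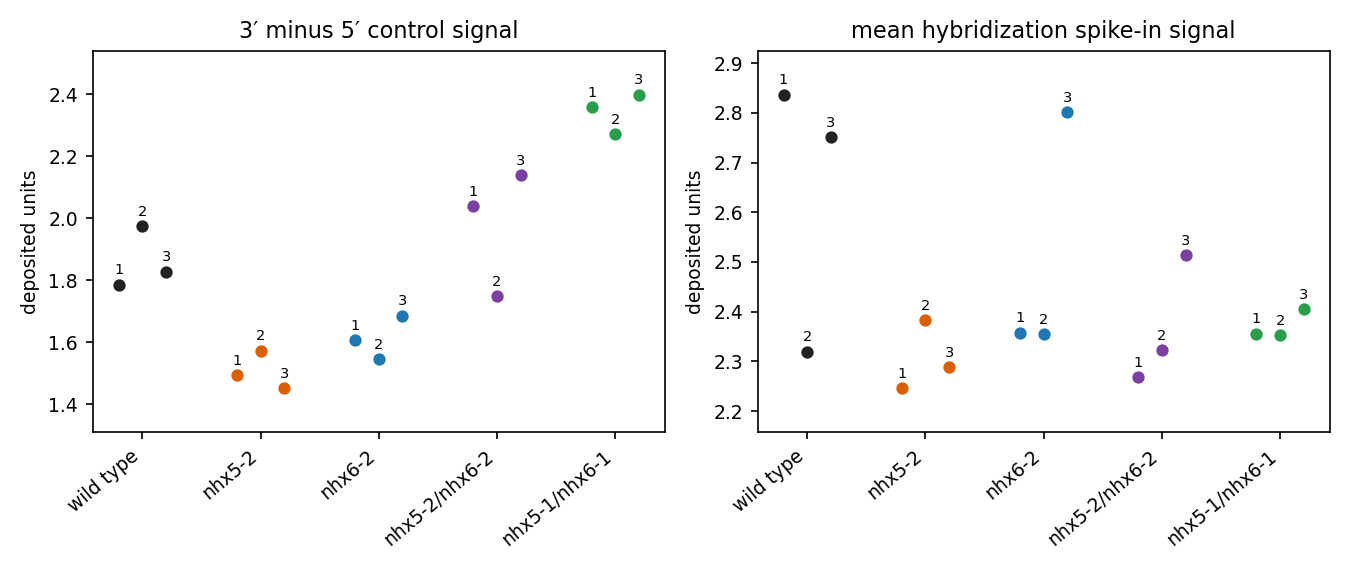
Array controls in deposited units for each array, with the replicate number above each point. Left, the 3′ minus 5′ signal of actin and GAPDH, where all 6 single knockout arrays (1.45 to 1.69) lie below wild type (1.79 to 1.97). Right, the mean hybridization spike-in signal, high on wild type 1 and 3 and on nhx6-2 replicate 3 (2.75 to 2.84).

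The tissue label was checked against markers. The nuclear photosynthesis list had a median wild type level of 5.03, RCA, which encodes Rubisco activase, stood at 5.42 and LHCB4.1, a light-harvesting protein gene, at 5.11, against a median of −0.32 over all probe sets. None of the 4 measured members of this list passed the test, also at an unadjusted p under 0.05, with differences of −0.17 ± 0.15 for LHCB4.1, −0.16 ± 0.16 for RCA, −0.10 ± 0.12 for LHCB4.2 and 0.17 ± 0.12 for LHCB4.3. CLV3, a marker of the shoot meristem, stood at −0.71 in wild type, near the median of −0.72 for control probe sets without a plant target, and at −0.76 in nhx5-2 and −0.67 in nhx6-2. TRY, a trichome patterning gene, had a difference of −0.10 ± 0.06 (adjusted p = 0.989). The lists of flower, vascular and root markers had no listed probe set, and the part of cell composition in the results was not tested.

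CHIL and HYH, which are linked to flavonoids and light signalling, both fell. Flavonols and anthocyanins share a pathway that opens with chalcone synthase and chalcone isomerase, and HY5 and its homolog HYH are bZIP transcription factors that act downstream of the light receptors. CHIL, which encodes a chalcone isomerase-like protein, stood at 1.39, 1.32 and 1.51 on the wild type arrays, at 0.62, 0.78 and 0.77 in nhx5-2 and at 0.53, 0.65 and 0.65 in nhx6-2. Both knockouts lay at much the same level, with every array below every wild type array, as the choice of genes required. CHIL fell by 0.74 ± 0.10 units, about 2.12-fold (adjusted p = 0.00609). Its adjusted p was 0.0529 without wild type replicate 1 and 0.0671 without replicate 3, and it passed in the other 7 such fits.

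HYH stood at 0.63, 0.84 and 0.65 in wild type, at 0.19, 0.38 and 0.28 in nhx5-2 and at 0.17, 0.23 and 0.10 in nhx6-2. The levels in nhx6-2 were on the whole lower than those in nhx5-2. HYH fell by 0.48 ± 0.06 units, about 1.63-fold (adjusted p = 0.00277), and passed in all 9 fits that left out 1 array (adjusted p 0.005 to 0.0164). Within the arrays of low spike-in signal its difference was −0.60, the 1 nhx6-2 array of high signal lay −0.54 from the wild type arrays of that set, and with the 3′ minus 5′ covariate −0.50 (adjusted p = 0.137).

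Of the 5 measured members of the flavonoid and anthocyanin list 2 fell, these being CHIL and HYH, and 0 rose, against 0.334% and 0.022% of all probe sets. The list members DFR and UF3GT, of later steps, stood close to the probe sets without a target in wild type and both single knockouts. DFR, which encodes dihydroflavonol reductase, stood at −0.56 in wild type, −0.60 in nhx5-2 and −0.56 in nhx6-2. UF3GT, an anthocyanin glycosyltransferase gene, stood at −0.49, −0.50 and −0.50 in the same order. The median difference of the list was −0.02, against 0.0011 over all probe sets. In the double knockouts the median of the 5 members was higher on most arrays, whereas CHIL and HYH were lower. Their differences from wild type were −1.11 for CHIL and −0.75 for HYH in nhx5-2/nhx6-2. In nhx5-1/nhx6-1 they were −1.21 for CHIL and −0.92 for HYH, so the median does not describe the list as a whole. The median level of the list was −0.43, −0.52 and −0.41 on the wild type arrays. It was −0.08, −0.16 and −0.30 in nhx5-2/nhx6-2 and 0.23, −0.12 and −0.59 in nhx5-1/nhx6-1. Only 5 of the 17 genes on the list had a listed probe set, and genes outside it, AT1G06000 among them, were not counted here. The list was chosen with earlier results of these data known.

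Genes of 2 cell wall proteins fell. EXGT-A3 (XTH27) encodes a xyloglucan endotransglucosylase, an enzyme that cuts and rejoins the xyloglucan tethers of the wall, and EXLA1 encodes an expansin-like protein. EXGT-A3 stood at 2.19, 1.83 and 2.13 in wild type, at 1.40, 1.58 and 1.67 in nhx5-2 and at 1.44, 1.53 and 1.48 in nhx6-2. The lowest wild type value, of replicate 2, was still above the highest knockout value. EXGT-A3 fell by 0.53 ± 0.10 units (adjusted p = 0.0468). It passed only without wild type replicate 2 among the fits that left out 1 array (adjusted p 0.0285, and 0.0659 to 0.374 without each other array). EXLA1 stood at 0.69, 0.33 and 0.70 in wild type, at 0.15, 0.17 and 0.19 in nhx5-2 and at −0.34, −0.07 and 0.08 in nhx6-2. The wild type was again lowest on replicate 2, and nhx6-2 lay below nhx5-2 on every array. EXLA1 fell by 0.55 ± 0.10 units (adjusted p = 0.0282), and it did not pass when wild type replicate 1 (0.24) or 3 (0.253) or any nhx5-2 array (0.0612 to 0.0685) was left out. Within the arrays of low spike-in signal, which leave out wild type replicates 1 and 3 and also nhx6-2 replicate 3, the differences of these genes were smaller, −0.31 for EXGT-A3 and −0.35 for EXLA1.

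The cell wall loosening list held EXPA8, EXPA4 and XTH33, and none of the 3 passed. EXPA8, an expansin gene, had a mean of 0.66 in wild type, 1.33 in nhx5-2 and 1.48 in nhx6-2. All 6 single knockout arrays were above wild type for EXPA8, and its difference of 0.74 ± 0.21 was the highest positive value of the whole table, with an adjusted p of 0.23. EXPA4 had a difference of 0.29 ± 0.09 (adjusted p = 0.266). At an unadjusted p under 0.05, 2 of the 3 passed, against 7.14% of all probe sets.

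Genes of 2 small secreted peptides fell. STOMAGEN (EPFL9) encodes a peptide made in the leaf mesophyll that promotes stomata in the epidermis, and RALFL33 belongs to the RALF family of peptides, known for signalling at the cell surface. STOMAGEN stood at 1.58, 1.51 and 1.58 in wild type, at 0.96, 1.22 and 1.25 in nhx5-2 and at 1.02, 1.32 and 1.10 in nhx6-2. RALFL33 stood at 1.60, 1.71 and 1.56, at 0.93, 1.14 and 1.32 and at 1.09, 1.12 and 1.25 in the same order. For both genes the wild type arrays lay close together and the knockout arrays spread more widely. The lack of overlap was a condition for naming them.

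STOMAGEN fell by 0.41 ± 0.08 units (adjusted p = 0.0372), by 0.41 in either knockout, and RALFL33 fell by 0.48 ± 0.08 (adjusted p = 0.0307). STOMAGEN passed only without nhx6-2 replicate 2 (adjusted p 0.0157, and 0.0521 to 0.27 without each other array). RALFL33 did not pass without any 1 of the wild type arrays (adjusted p 0.129 to 0.179), nhx5-2 replicate 2 (0.0686), nhx6-2 replicate 1 (0.0716) or nhx6-2 replicate 2 (0.0542). None of the 4 measured guard cell genes passed, also at an unadjusted p under 0.05. SPCH, which encodes a factor that starts the stomatal lineage, stood at −0.61 in wild type, −0.70 in nhx5-2 and −0.69 in nhx6-2, and MUTE at −0.68, −0.69 and −0.67, both near the level of probe sets without a target. FMA, a factor of the last step, had a difference of 0.03 ± 0.03, the highest of the 4. The differences of the 4 ran from −0.19 to 0.03, with 3 below 0 and a median of −0.05. For 1 of the 4 all single knockout arrays lay below wild type, against 3.87% of all probe sets.

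Of the cytosolic chaperone genes, AT3G09440 fell and Fes1B rose. AT3G09440, a cytosolic Hsp70 gene, was the one measured member of the heat shock list. It stood at 3.39, 3.01 and 3.35 in wild type, at 2.68, 2.91 and 2.95 in nhx5-2 and at 2.56, 2.56 and 2.86 in nhx6-2. Wild type replicate 2 came close to the highest knockout arrays without overlapping them. AT3G09440 fell by 0.50 ± 0.09 units (adjusted p = 0.0399). It passed without wild type replicate 2 (adjusted p 0.0103) and without nhx6-2 replicate 3 (0.0217), and not without each other array (0.0612 to 0.327). Its difference was −0.31 within the arrays of low spike-in signal and −0.51 for the 1 nhx6-2 array of high signal. Fes1B, which encodes a nucleotide exchange factor of Hsp70, stood at −0.18, −0.20 and −0.21 in wild type, at 0.18, 0.08 and 0.09 in nhx5-2 and at 0.23, 0.32 and 0.17 in nhx6-2. Every knockout array was above 0 and every wild type array below it. Fes1B rose by 0.38 ± 0.05 units (adjusted p = 0.00826), with 0.059 when wild type replicate 1 and 0.0708 when replicate 3 was left out.

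None of the 5 measured genes of folding in the endoplasmic reticulum passed, also at an unadjusted p under 0.05. ATERDJ3B, an endoplasmic reticulum co-chaperone gene, had a difference of 0.22 ± 0.12 (adjusted p = 0.823), and BZIP28, a sensor gene of the unfolded protein response, 0.15 ± 0.08 (adjusted p = 0.832). For these 2 of the 5 genes the single knockouts lay above wild type on every array, as for 1.61% of all probe sets. BZIP60, which acts in the same response, had a difference of −0.02 ± 0.10.

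The largest of the 15 named decreases was that of AT1G06000, at 1.37, 1.37 and 1.78 in wild type, 0.69, 0.81 and 0.59 in nhx5-2 and 0.37, 0.49 and 1.01 in nhx6-2. The highest knockout value, of nhx6-2 replicate 3, remained below the lowest wild type value. AT1G06000 fell by 0.85 ± 0.14 units, about 2.37-fold (adjusted p = 0.0169), and lost its call when wild type replicate 1 (adjusted p 0.0677) or 3 (0.158) was left out. AT5G24570 stood at 1.14, 0.99 and 1.05, at 0.39, 0.55 and 0.49 and at 0.40, 0.72 and 0.43 in wild type, nhx5-2 and nhx6-2. Its 2 knockouts overlapped each other and were far below wild type. AT5G24570 fell by 0.56 ± 0.068 units (adjusted p = 0.00277), passed in all 9 fits without 1 array (adjusted p 0.000346 to 0.0399) and had a difference of −0.47 within the arrays of low spike-in signal and of −0.67 for the 1 nhx6-2 array of high signal.

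AT5G57760 stood at 0.30, 0.57 and 0.18 in wild type, at −0.13, −0.07 and −0.12 in nhx5-2 and at −0.25, −0.05 and −0.26 in nhx6-2. All wild type values were above 0 and all knockout values below it. AT5G57760 fell by 0.50 ± 0.071 units (adjusted p = 0.00826), with 0.0541 without wild type replicate 1. AT1G64380 went the other way, at −0.22, −0.40 and −0.25 in wild type, 0.04, 0.04 and −0.01 in nhx5-2 and 0.13, 0.09 and 0.09 in nhx6-2. The knockout arrays lay close together and above every wild type array. AT1G64380 rose by 0.36 ± 0.044 units, about 1.44-fold (adjusted p = 0.00277), and passed in all 9 fits without 1 array (adjusted p 0.00714 to 0.0164).

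The other named decreases were AT3G56290, AT2G44670, AT2G42190, AT3G19680 and AT5G23760. AT3G56290 stood at 3.47, 3.29 and 3.16 in wild type, 2.73, 2.97 and 2.76 in nhx5-2 and 2.79, 2.52 and 2.75 in nhx6-2. It fell by 0.55 ± 0.10 units (adjusted p = 0.0326). AT2G44670 stood at 2.28, 2.13 and 2.18, at 1.47, 1.86 and 1.72 and at 1.55, 1.36 and 1.42. For these 2 genes the nhx6-2 means were lower than the nhx5-2 means. AT2G44670 fell by 0.63 ± 0.12 units (adjusted p = 0.0412). AT2G42190 fell by 0.49 ± 0.10, AT3G19680 by 0.48 ± 0.09 and AT5G23760 by 0.47 ± 0.09 units. In fits without 1 array, AT2G42190 passed in none of 9, with an adjusted p of 0.0622 to 0.277. AT2G44670 passed only without nhx5-2 replicate 2 (0.0477), and AT3G19680 only without wild type replicate 2 (0.0028) or nhx6-2 replicate 2 (0.0336). AT5G23760 passed only without nhx5-2 replicate 2 (0.0315) or nhx6-2 replicate 3 (0.0277). AT3G56290 passed only without nhx5-2 replicate 2 (0.0366), nhx6-2 replicate 1 (0.0498) or nhx6-2 replicate 3 (0.0493). AT3G19680 had a difference of −0.15 within the arrays of low spike-in signal, and AT5G23760 one of −0.27 for the 1 nhx6-2 array of high signal. With the 3′ minus 5′ covariate AT5G23760 was at −0.29 (adjusted p = 0.999).

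**Figure D2:**
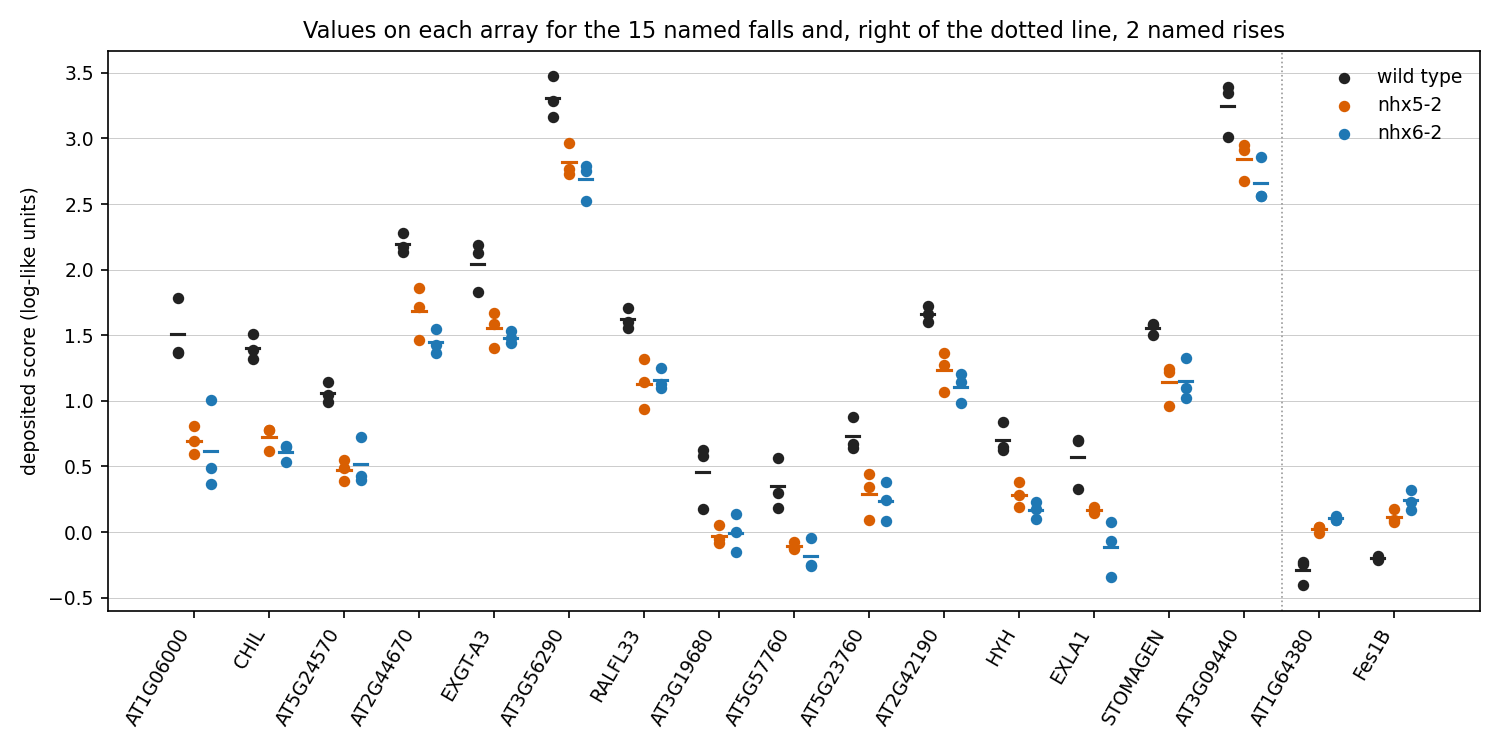
Deposited score (log-like units) on each of the 9 arrays for the 15 named decreases, in the order of the smaller of their 2 differences, and for the 2 named increases right of the dotted line. Points are arrays and bars are group means. Genes were chosen so that the 6 single knockout arrays lie on one side of the 3 wild type arrays. CHIL, for example, lies at 1.32 to 1.51 in wild type and 0.53 to 0.78 in the knockouts.

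Of the 17 named changes, 3 passed without wild type replicate 1 and 4 without replicate 3, and 3 passed in every fit that left out 1 array, these being AT5G24570, HYH and AT1G64380. With the spike-in block 4 of the 17 passed, AT5G24570, HYH, AT1G64380 and AT5G57760, and with the 3′ minus 5′ covariate 0 passed (adjusted p 0.0964 to 0.999). Within the 6 arrays of these genotypes with low spike-in signal, which held 1 wild type array whose spread was taken to equal that of the other groups, 0 of the 17 passed (adjusted p 0.0692 to 1). The choice of genes without overlap fixes the sign of these differences within that set.

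Another 16 single genes fell by 0.208 to 0.405 units. Among them were IQD24, of a family of calmodulin-binding proteins, with −0.36 ± 0.05 (adjusted p = 0.0107), and NIH, a nuclear helicase gene, with −0.28 ± 0.05 (adjusted p = 0.0135). AT3G14395 was the only one of these whose arrays overlapped with wild type. At the threshold, AT2G42190 and the unlisted probe set 261926_at were the last inside, each with an adjusted p of 0.0482, and 265958_at (0.0511) and 263421_at (0.0515) were the first outside.

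Of the 81 probe sets, 34 had exactly 1 gene in the annotation, 1 had several and 46 had no gene listed. The unlisted ones held some of the largest decreases, and those given here were chosen after their values were seen. The probe set 252123_at stood at 2.29, 2.18 and 2.46 in wild type, at 1.40, 1.58 and 1.44 in nhx5-2 and at 1.14, 1.10 and 1.38 in nhx6-2. It fell by 0.97 ± 0.14 units (adjusted p = 0.00673), with 0.0579 when wild type replicate 1 and 0.0698 when replicate 3 was left out. Its 3 genotypes formed separate steps, wild type above nhx5-2 and nhx5-2 above nhx6-2. The probe set 261569_at stood at 2.21, 2.06 and 2.12, at 1.41, 1.53 and 1.47 and at 1.27, 1.09 and 1.18. It fell by 0.80 ± 0.075 units (adjusted p = 0.000432), kept passing in all 9 fits without 1 array and passed with the 3′ minus 5′ covariate at −0.92 (adjusted p = 0.0176). These 3 genotypes, too, did not overlap. The probe set 263845_at fell by 0.73 ± 0.083 units and 254020_at by 0.70 ± 0.068, and 263845_at had −0.94 with the covariate (adjusted p = 0.0176). The 3 unlisted increases were 253125_at at 0.47 ± 0.084, 255825_at at 0.44 ± 0.081 and 249512_at at 0.22 ± 0.040.

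The 76 decreases had a median wild type score of 0.907, against −0.32 over all probe sets, and each of the 76 was above that overall median. A decrease can be measured only from above the level of probe sets without a target, so higher starting scores follow in part from the measurement. Scores of different probe sets also depend on the probes themselves.

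Increases that missed the threshold are given as values. BIM1, a brassinosteroid signalling factor gene, had a difference of 0.18 ± 0.039 (adjusted p = 0.0881), from a wild type range of −0.08 to 0.00. AT1G01240 had 0.31 ± 0.07 (adjusted p = 0.0926), AT5G01210 had 0.21 ± 0.05 (0.096) and AT4G19860 had 0.22 ± 0.05 (0.114). AT1G78890 had 0.24 ± 0.06 (0.125) and AT1G20070 had 0.54 ± 0.13 (0.126). These 6 genes were picked, by smallest p, from the 182 single-gene probe sets that missed the threshold with all single knockout arrays above wild type. Their lack of overlap is therefore no result, and it held for 1.61% of all probe sets.

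In the median of the pooled decreases both single knockouts lay below wild type, nhx6-2 by somewhat more. The 76 decreases had a median difference from wild type of −0.38 in nhx5-2 and −0.45 in nhx6-2. Over all probe sets the medians were 4.9e-05 in nhx5-2 and −0.003 in nhx6-2. The nhx6-2 line was the farther in 60 of the 76. Those 76 were chosen by the mean of both lines and are not replicates, so that count is no test of a difference. These knockouts share the wild type arrays, so an error in those arrays shifts both the same way. Tested alone against wild type, nhx5-2 had 15 changes (0.0659% of all probe sets) and nhx6-2 had 66 (0.29%). Of the 81 pooled changes 15 passed in the test of nhx5-2 and 55 in that of nhx6-2. Both counts include the 12 that passed in both tests, and 23 passed in neither. The direct test of nhx6-2 against nhx5-2, which does not use wild type, called 3 probe sets (0.0132%), all among the 81. For EXLA1 the difference between the knockouts was −0.28 ± 0.11 (adjusted p = 1) and for STOMAGEN 0.005 ± 0.088 (adjusted p = 1), so differences of this size were not resolved with 3 arrays each.

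The 3 exceptions were lower in nhx5-2 and near wild type in nhx6-2. AT2G32500 stood at 1.31, 1.39 and 1.35 in wild type, at −0.63, −0.73 and −0.71 in nhx5-2 and at 1.45, 1.35 and 1.30 in nhx6-2. Its nhx5-2 values lay at the level of control probe sets without a target, so the decrease there is at least the measured one, and the nhx6-2 values were mixed with wild type. Its pooled difference of −1.01 ± 0.077, the largest decrease of all, is thus the mean of −2.04 in nhx5-2 and 0.01 in nhx6-2, and is no change common to both. The unlisted probe sets 263009_at and 263001_at had −0.95 and −0.92 in nhx5-2 and −0.11 and −0.08 in nhx6-2.

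**Figure D3:**
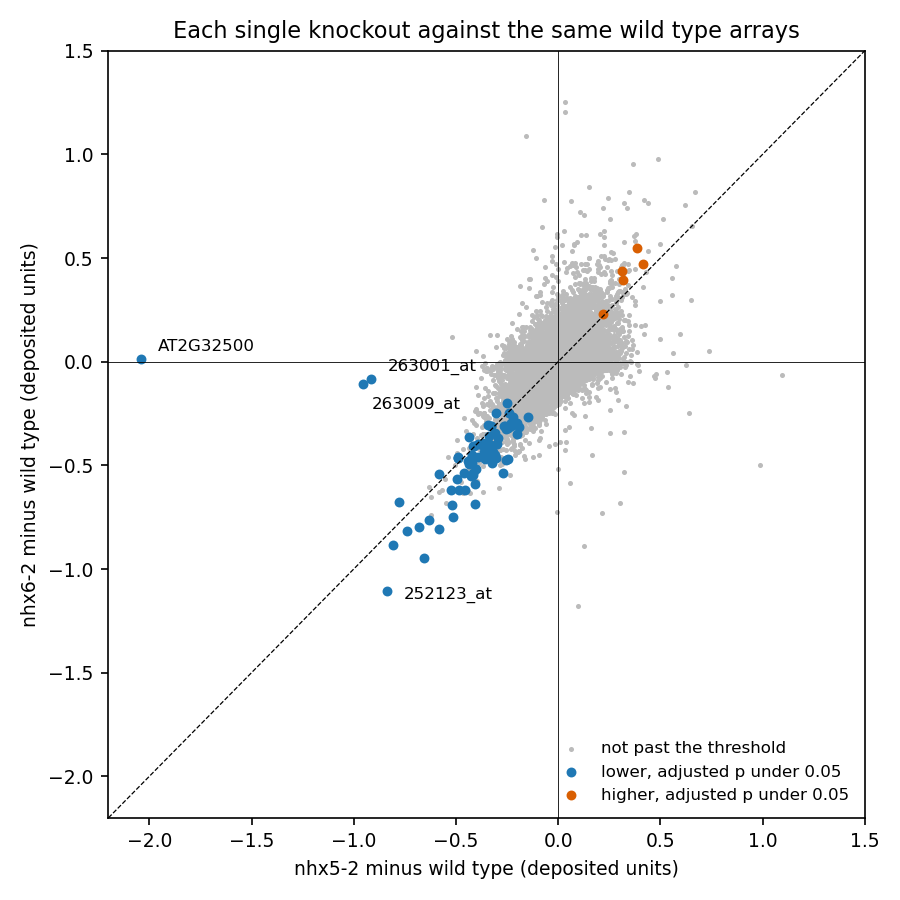
Difference from wild type in nhx5-2 (horizontal) and nhx6-2 (vertical) for all 22746 probe sets, in deposited units, both against the same 3 wild type arrays. Blue points fell and orange points rose in the pooled comparison, and the dashed line marks equal differences. Most blue points lie along the line, while AT2G32500, 263009_at and 263001_at lie near 0 for nhx6-2.

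In the double knockouts the 76 decreases were deeper in the median, and the RNA controls moved too. The 3′ minus 5′ signal was 1.75 to 2.40 on the 6 double knockout arrays, above all 6 single knockout arrays at 1.45 to 1.69, and its part in the difference between doubles and singles was not tested. Relative to wild type their median was −0.62 units in nhx5-2/nhx6-2, against −0.59 for the nhx5-1/nhx6-1 line. In each of these lines 73 of the 76 were lower past the threshold, against 5.54% and 6.9% of all probe sets, and these comparisons share the wild type arrays with the pooled one. The mean of the doubles was set against the mean of the singles without use of wild type, although the singles' values, by which the 76 were chosen, enter that difference. There 43 of the 76 were further lower (7.83% of all probe sets), 1 was higher (7.08% of all) and 32 did not pass. Of the 5 increases, 2 were further higher in the doubles, Fes1B and 253125_at, and 3 did not pass.

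AT3G09440 went from −0.50 in the pooled singles to −1.31 in nhx5-2/nhx6-2 and −1.11 in nhx5-1/nhx6-1, a further −0.71 ± 0.08 (adjusted p = 0.000101). EXLA1 was a further −0.51 ± 0.08 lower in the doubles (adjusted p = 0.000895), CHIL −0.42 ± 0.08 (adjusted p = 0.00404) and HYH −0.36 ± 0.05 (adjusted p = 0.000387). Fes1B rose further, by 0.35 ± 0.04 (adjusted p = 0.000252). STOMAGEN was at −0.49 and −0.33 in the doubles, much as in the singles, with a difference between doubles and singles of −0.0024 ± 0.062 (adjusted p = 0.988). AT5G23760 had −0.27 (adjusted p = 0.113) in nhx5-2/nhx6-2 and −0.41 (adjusted p = 0.0142) in nhx5-1/nhx6-1. The exception that was higher in the doubles, 247461_at, had −0.25 ± 0.05 in the singles and −0.02 and −0.04 in the doubles. AT1G64380 had a difference from wild type of 0.15 (adjusted p = 0.0836) in nhx5-2/nhx6-2 and of 0.40 (adjusted p = 0.000263) in nhx5-1/nhx6-1. Of the 15 named decreases, 8 were further lower in the doubles and 7 did not pass that test.

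**Figure D4:**
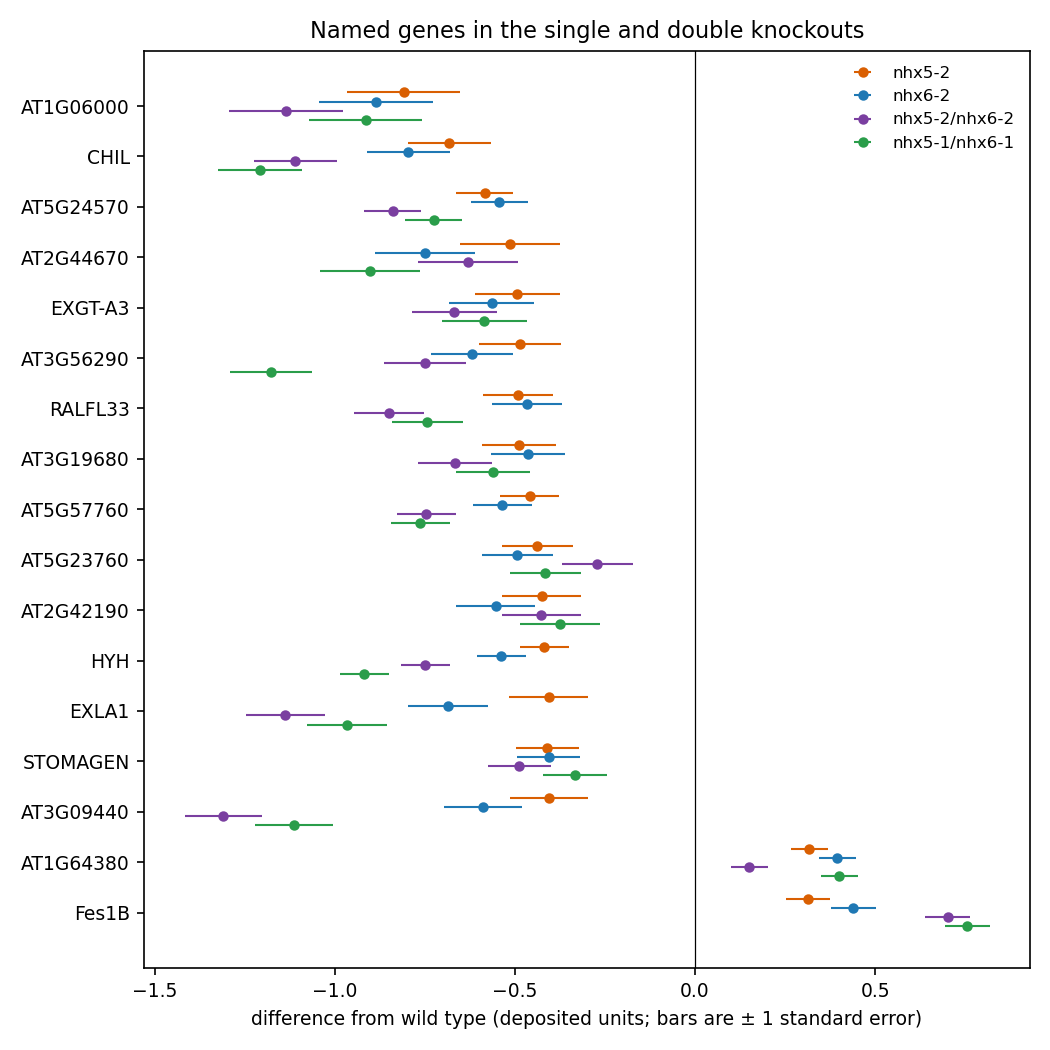
Difference from wild type in deposited units for the 15 named decreases and 2 named increases in each knockout line. Points are model estimates from 3 arrays per genotype and bars are ± 1 standard error. AT3G09440 goes from −0.40 and −0.59 in the singles to −1.31 and −1.11 in the doubles, whereas STOMAGEN lies between −0.49 and −0.33 in all 4 lines.

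In the lists closest to the antiporters no measured member passed, but few members were measured and 0.356% of all probe sets passed, so these counts say little about the lists. Probe sets were listed for 7 of 27 proton pump genes, 2 of 28 trafficking genes and 1 of 18 cation antiporter genes. Of the 33 lists formed 25 had a listed probe set, and 2 of the 25 had a member past the threshold, flavonoid and anthocyanin genes and heat shock genes. The proton pump list had 0 of 7 past the threshold, also at an unadjusted p under 0.05, with a median of 0.08. VHA-A1, a subunit gene of the proton pump of the trans-Golgi network, had a difference of −0.10 ± 0.06 (adjusted p = 0.949), and VHA-A3, of the vacuolar membrane pump, 0.09 ± 0.08. At either level vacuolar proteases had 0 of 7, with GAMMA-VPE, a vacuolar processing enzyme gene, at 0.11 ± 0.13 and APA1, an aspartic protease gene, at 0.09 ± 0.09. In trafficking 0 of 2 passed at either level, ARA6, a Rab GTPase gene of endosomes, having 0.12 ± 0.10. CHX20, the only listed cation antiporter, had −0.02 ± 0.09.

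Autophagy had 0 of 11 past the threshold and 1 at an unadjusted p under 0.05, with 10 of the 11 above 0 and a median of 0.07. ATG8F, whose protein is conjugated to the autophagosome membrane, had a mean of 1.52 in wild type, 1.73 in nhx5-2 and 1.98 in nhx6-2, a difference of 0.33 ± 0.11 (adjusted p = 0.327). Within the arrays of low spike-in signal, without wild type replicates 1 and 3 and nhx6-2 replicate 3, the median of the list was −0.08. Among cold and drought genes 0 of 4 passed at either level, and COR15A, which encodes a chloroplast protectant, had a difference of 0.08 ± 0.29. In the clock list CCL had 0.45 ± 0.13 (adjusted p = 0.253) and GI, a core clock gene, −0.07 ± 0.06. The wild type SD of CCL was 0.36, close to the size of its difference.

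Chloroplast-encoded genes had 0 of 69 past the threshold and 1 at an unadjusted p under 0.05, with 58 above 0 and a median difference of 0.14. Their median level was 1.36, 0.47 and 1.61 on wild type replicates 1, 2 and 3, and 1.14 to 1.73 on the single knockout arrays. Wild type replicate 2 stood apart below all others of this comparison. Without it the median difference was −0.07, and with the 3′ minus 5′ covariate −0.17. Mitochondrion-encoded genes had 0 of 23, also at an unadjusted p under 0.05, and a median of 0.02.

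**Figure D5:**
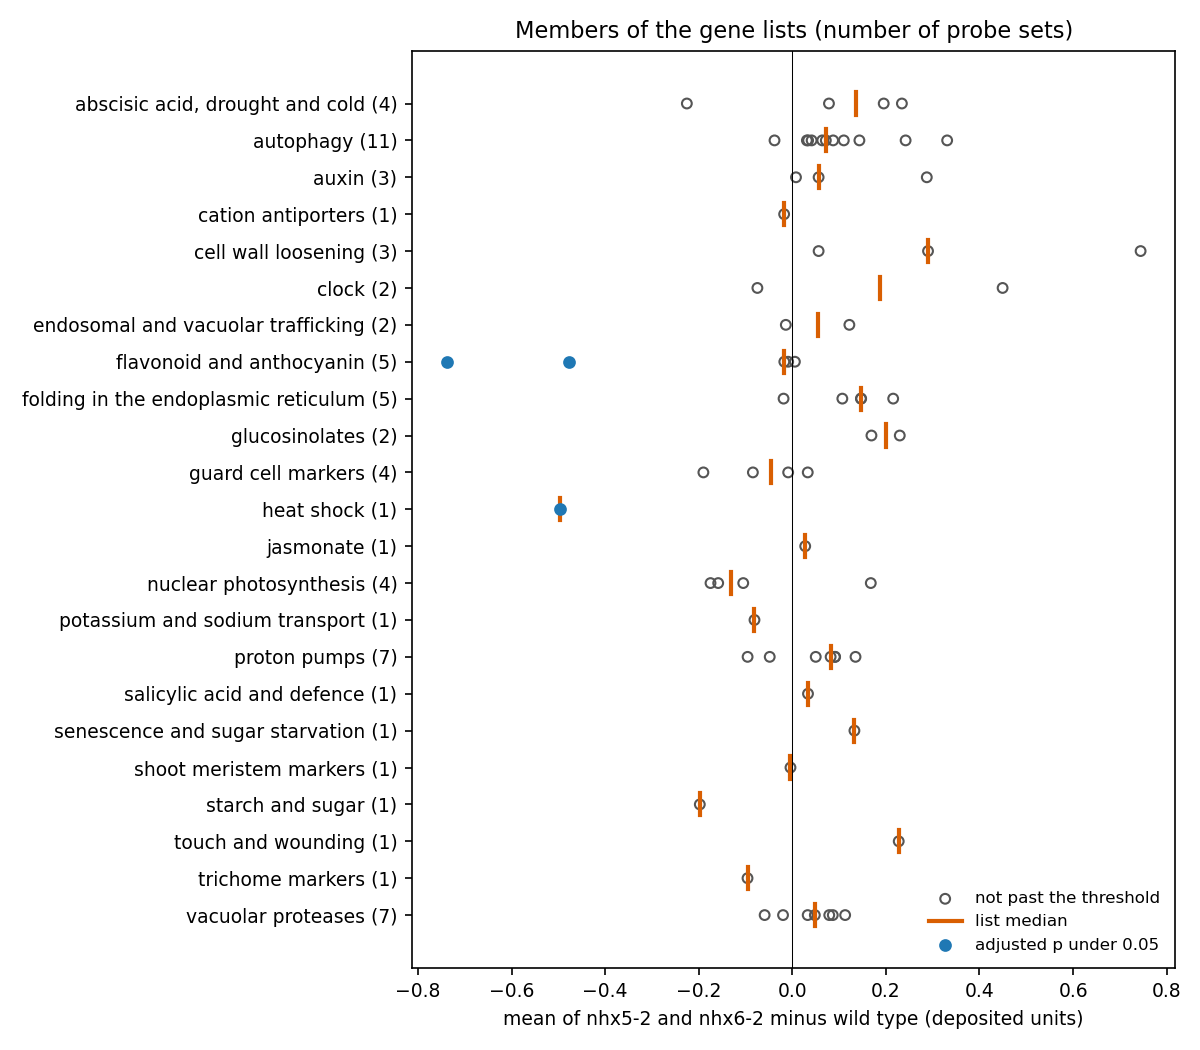
Difference of the mean of nhx5-2 and nhx6-2 from wild type, in deposited units, for each probe set of the nuclear gene lists. Open circles did not pass the threshold, filled circles did, and orange bars mark list medians. The filled circles are CHIL (−0.74), HYH (−0.48) and AT3G09440 (−0.50), and the rightmost open circle is EXPA8 (0.74).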

How the data were processed

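Biotin-labelled RNA made from 6 µg of total RNA was hybridized to Affymetrix Arabidopsis arrays, per the labels. The authors deposited a log-like score per probe set and array. How it was summarized and normalized, and its log base, is not given in the sources consulted. No further transformation was applied. In R 4.3.3, limma 3.58.1 (lmFit and eBayes) was fitted to all 15 arrays with 1 mean per genotype. The contrast was the mean of nhx5-2 and nhx6-2 minus wild type, with Benjamini-Hochberg adjustment over 22746 probe sets and a threshold of 0.05. The code was tested on simulated data. Spike-in concentrations of 1.5, 5, 25 and 100 pM, the array maker's nominal values, were assumed, giving a slope of 0.681 units per doubling (SD 0.0281 over arrays). Precision is limited by the number of arrays.

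The annotation used here gave 1 gene for 13513 probe sets, several for 503 and none for 8730, and 13436 of the first matched the reference gene table (TAIR10.1). Named genes have 1 gene, pass the threshold and have no overlap between the 6 knockout and 3 wild type arrays. The 15 largest decreases, ranked by the smaller of their 2 single knockout differences, and all such increases were named, followed by increases of smallest p without overlap up to 8. Up to 4 members of each list and genes that differ between the single knockouts were added. The genes and lists were chosen with earlier results of these data known. A planned list of cytosolic ribosomal protein genes could not be formed from the annotation's names. Alternatives covered scaling, a filter on low levels, the arrays fitted, the spread model, array weights, the 3′ minus 5′ signal, replicate number and single arrays left out. Replicate numbers did not pair the arrays: same-numbered arrays of different genotypes had deviations from their group means that correlated at −0.361 to 0.0942 over 9 pairs.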

Additional observations from a re-analysis of the deposited data

Results flagged for a closer look

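The probe sets whose difference from wild type differed between the single knockouts, by limma's test of nhx6-2 minus nhx5-2 over all probe sets, were AT2G32500 (2.05 units, adjusted p = 6.81e-08), 263009_at (0.844, adjusted p = 9.05e-05) and 263001_at (0.835, adjusted p = 7.77e-07), each higher in all 3 nhx6-2 arrays than in any nhx5-2 array. AT2G32500 had −2.10 ± 0.09 in nhx5-2/nhx6-2 and −0.26 ± 0.09 in nhx5-1/nhx6-1, 263001_at had −0.96 and −0.14, and 263009_at had −0.99 and −0.97.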

How the results depend on the processing

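The count of 81 changes became 235 with quantile normalization, 152 with arrays brought to one median and SD, 228 without the 2 arrays of low SD (66 higher and 162 lower), and 5 with the RNA integrity covariate (3′ minus 5′ signal). Array weights gave 3789, but their estimation stopped before it converged, with weights of 0.0105 to 12.8. With the replicate number as a replicate block, although the numbers did not pair the arrays, the count was 51. Leaving out 1 array gave 12 to 71. The spike-in settings, added after seeing the data, gave 26 with a block and 0 within the low arrays (1101 at an unadjusted p under 0.05, 1 wild type array). Within the high arrays they gave 4526, where the spread came from wild type replicates 1 and 3 alone and the count has no use. The other settings gave 58 to 102. The count of 3 probe sets that differ between the singles became 131 with array weights and 3 to 5 without 1 array. Over 30 named probe sets and 23 settings, 486 values kept their side of the threshold, 178 no longer passed, 25 newly passed and 0 turned in direction. Most of these probe sets were chosen for having no overlap, which fixes the sign in fits that only leave out arrays. The count of 0 therefore says little about how firm the directions are. The probe set 263009_at did not pass the filter on low mean scores and has no value there. The cause of these shifts was not tested. No gene was listed for 8730 probe sets, and transcripts already at the level of probe sets without a target have no measured decrease.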
